A study of Homo sapiens with 12 samples.

Results

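The histone cluster genes are the genes that encode the core histones H2A, H2B, H3 and H4 and the linker histone H1 in the HIST1, HIST2, HIST3 and HIST4 gene groups. Here they are named by the older symbols that the deposited tables use. Members were chosen by symbol and selected on the authors' mean normalized value over all samples, which had to be at least 10. Of 57 listed symbols that begin with HIST1H, HIST2H, HIST3H or HIST4H, 34 met this minimum, out of 23292 symbols in all. These values chose the members, so they are given as a description and were not tested.

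The study treated HEK293T cells, a human embryonic kidney line that the growth protocol calls HEK293, for 6 h with DMSO vehicle or with 10 µM of the phenylhydrazone AA263 or its analogs AA263yne and AA263-5. Each of these 4 groups had 3 samples, 12 in all, and all were labelled WT; the labels do not say whether the 3 samples came from separate cultures. RNA was described in the labels as selected by its poly(A) tail on oligo dT beads, while the methods name a whole transcriptome preparation. Each table pairs a compound with vehicle, and the columns of those comparisons were not used here. The 1 value analysed for each gene was the mean over vehicle and treated samples together, which carries no spread and shows no effect of a compound. All 5 marker genes known in this line, *VIM*, *NEFM*, *KRT18*, *KRT8* and *INA*, were measured, with mean normalized values from 704 for *INA* to 18797 for *VIM*. The markers *PTPRC* of white blood cells, *PECAM1* of endothelium and *ALB* of hepatocytes stood at 0.544, 0.687 and 1.30, while the collagen gene *COL1A1* stood at 397.

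Replication-dependent histone genes are transcribed in S phase, when new DNA needs new nucleosomes. Their mRNAs are known for usually ending without a poly(A) tail, unlike other mRNAs. The pre-mRNA is cut just after a short stem-loop, which the stem-loop binding protein SLBP holds through processing, export and translation. Some of these genes can also give a longer transcript with a poly(A) tail, above all in cells that have left the cycle. A separate group, the replication-independent histone genes, gives polyadenylated mRNAs throughout the cycle, and 1 of them, *H2AFX*, is known to give a stem-loop mRNA as well.

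The stem-loops are shown because the way RNA was selected bears on how such transcripts are counted. They were read from the GENCODE 44 transcripts on GRCh38 and are written as DNA, 5′ to 3′, with the 16 bases of the stem-loop in capitals. The motif searched has the arm GGCTCT, then the loop TTTC, then the arm AGAGCC, read on the transcript's own strand, with positions counted from 1 at its 5′ end. It was found without a mismatch in 20 of the 34 members and in 15 of the 23 symbols under the minimum, against 0.210% of 20046 coding genes.
HIST3H2A (chr1:228457364-228457390, minus strand): cataaaGGCTCTTTTCAGAGCCaccta
HIST1H1C (chr6:26055740-26055765, minus strand): ccaaaaGGCTCTTTTCAGAGCCacca
HIST2H2AA4 (chr1:149851568-149851594, plus strand): tcaaaaGGCTCTTTTCAGAGCCaccca
HIST1H3H (chr6:27810510-27810536, plus strand): cccaaaGGCTCTTTTCAGAGCCaccca
HIST1H2BK (chr6:27146361-27146387, minus strand): cccaaaGGCTCTTTTAAGAGCCactta
HIST1H2BD (chr6:26158581-26158607, plus strand): cccaaaGGCTCTTTTAAGAGCCacgca
HIST1H2BJ (chr6:27132316-27132342, minus strand): cctaacGGCTCTTTTAAGAGCCaccca
HIST1H2BC (chr6:26123467-26123493, minus strand): cccaaaGGCTCTTTTAAGAGCCaccca
HIST2H2AC (chr1:149887385-149887411, plus strand): accaaaGGCTCTTTTTAGAGCCaccca
HIST1H4J (chr6:27824453-27824479, plus strand): ataaaaGGCCCTTTTCAGGGCCaccct
HIST1H4E (chr6:26204995-26205021, plus strand): atcaaaGGCCCTTTTCAGGGCCgccca

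The first 4 sequences hold the motif as searched. The H2B members *HIST1H2BK*, *HIST1H2BD*, *HIST1H2BJ* and *HIST1H2BC* carried C10A, at the last base of the loop, and *HIST2H2AC* carried C10T there. C10A was also present in *HIST1H2BF* and *HIST2H2AB*, which lay under the minimum at 2.63 and 3.19. All 8 H4 genes that matched with 2 mismatches, 4 members and 4 others, carried T4C together with A13G, bases that face each other in the stem. With 2 mismatches allowed, 31 of the 34 members held the stem-loop. The remaining members *HIST1H4K*, *HIST2H4A* and *HIST2H4B* had no such match in the annotated transcript.

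Members ran from 10.2 to 1378 in mean normalized value, and a single H2B gene led them. *HIST1H2BK*, which lies on chromosome 6 of GRCh38 from 27146361 to 27146855 on the minus strand, had a mean normalized value of 1378 and held 43.7% of the summed value of all members. Next came *HIST3H2A*, an H2A gene of the small HIST3 group on chromosome 1, at 278, and *HIST1H1C*, which encodes the linker histone H1.2, at 269. These 3 genes held 61.1% of the members' sum and the highest 10 held 81.5%. Below them the values fell off in smaller steps, from 131 for *HIST2H2AA4* to 102 for *HIST1H4K* and 100.1 for *HIST1H4J*.

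As a group the members were weakly represented. Their summed value was 3151 of a total of 36.6 M, or 0.00862%, and without *HIST1H2BK* the share was 0.00485%. The median member stood at 26.6, beside a median of 571 over the 15638 symbols at the minimum or above. Of the 34 members, 6 reached 100, another 6 lay between 50 and 100, and 22 lay between 10 and 50. In percentiles of the same 15638 symbols, *HIST1H2BK* was at 68.2, *HIST3H2A* at 38.6 and the lowest member, *HIST1H4E*, at 0.198.

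**Figure D1:**
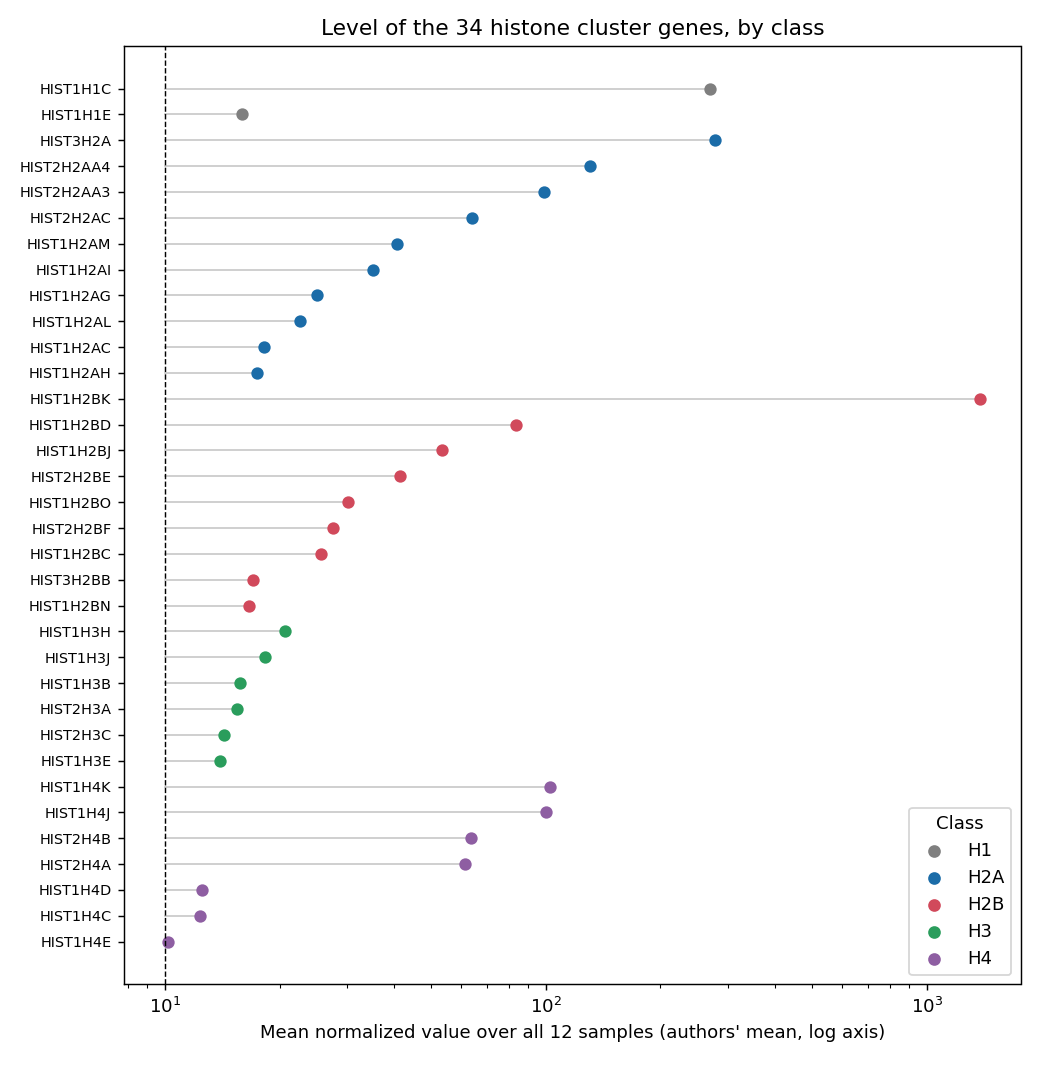
Mean normalized value over all 12 samples (authors' mean, log axis) for each of the 34 members, grouped and coloured by histone class, with the minimum of 10 as a dashed line. HIST1H2BK stands alone at 1378, while the 6 of 11 listed H3 genes that met the minimum lie between 14.0 and 20.7.

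Histone transcripts are short, so levels of different genes were compared per kilobase of the main GENCODE transcript, which was 387 to 2224 bases long among members. The methods name RPKM, which is already divided by length, as the input of the fit. The deposited values are not on that scale as it stands, since multiplied by transcript length they summed to 119 M, where RPKM can sum to 1 M at most. A rescaled value that was already divided by length cannot be told apart from a count here, and in that case the deposited value would be the one to compare between genes, so the deposited scale is given beside the value per kilobase. On the value per kilobase the median member stood at 53.2, beside 206 for the 14026 symbols at the minimum or above with a length. Here *HIST1H2BK* reached 2784, at percentile 93.2 of those symbols, *HIST3H2A* 545 at percentile 70.7 and *HIST1H1C* 368 at percentile 62.5. The length used for *HIST1H2BK* was 495 bases, while its RefSeq gene span was 8566 bases. A longer form would give it a lower value per kilobase, which was not tested. *HIST2H2BE* was the lowest, at 18.6 per kilobase, since its annotated transcript is the longest of the members. Its deposited value of 41.4 was the thirteenth highest.

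The linker histone H1 binds DNA where it enters and leaves the nucleosome. Of 4 listed H1 genes, 2 were members. *HIST1H1C* (chromosome 6, 26055740 to 26056470) had a mean normalized value of 269 and *HIST1H1E*, which encodes H1.4, had 16.0. The other H1 genes, *HIST1H1B* and *HIST1H1D*, stood at 2.41 and 0.374. The transcripts of both members shared no run of 50 bases with the transcript of another gene, although *HIST1H1E* overlapped another annotated gene on its own strand.

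H2A and H2B form the dimers that flank the core tetramer of H3 and H4. The 10 H2A members ranged from 17.4 to 278 in mean normalized value, with a median of 38.0, and summed to 731. Behind *HIST3H2A* stood *HIST2H2AA4* at 131, *HIST2H2AA3* at 98.8 and *HIST2H2AC* at 63.9, all in the HIST2 group, while the H2A members of the HIST1 group reached at most 40.8. *HIST1H2AH* had the lowest deposited value at 17.4, and *HIST1H2AC* the lowest per kilobase at 35.0. The 9 H2B members summed to 1674, which is 53.1% of all members, but without *HIST1H2BK* they ranged only from 16.6 for *HIST1H2BN* to 83.6 for *HIST1H2BD*. *HIST1H2BJ* was at 53.4, *HIST1H2BO* at 30.2 and *HIST1H2BC* at 25.6.

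H3 and H4 make up the tetramer at the centre of the nucleosome. The 6 H3 members ran from 14.0 for *HIST1H3E* to 20.7 for *HIST1H3H*, with *HIST1H3J* at 18.3 and *HIST1H3B* at 15.8. The minimum of 10 bounds this range from below, and the other 5 listed H3 genes stood at 1.41 to 4.71. Together the 6 members held 3.12% of the members' sum. The 7 H4 members, whose genes encode the same protein, fell into separate levels. *HIST1H4K* at 102, *HIST1H4J* at 100.1, *HIST2H4B* at 63.6 and *HIST2H4A* at 61.2 lay well above *HIST1H4D* at 12.5, *HIST1H4C* at 12.4 and *HIST1H4E* at 10.2. The genes of the upper level form near-identical pairs, while those of the lower level shared no run of 50 bases with another gene's transcript. Those last 3 H4 genes were also the members nearest to the minimum, and just under it lay *HIST1H2BL* at 9.94, *HIST1H2AK* at 9.57 and *HIST1H2AD* at 6.33.

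Summed per kilobase, the order of the classes was H2B at 3331, H2A at 1431, H4 at 924, H1 at 388 and H3 at 195. The deposited values gave the same order. It rested in part on single genes, since without the highest member of each class H2A led at 886, followed by H4 at 659, H2B at 546, H3 at 153 and H1 at 20.3. Members that share a run with another member also weighed on it. Without them no H2B gene was left, and the order was H2A at 616, H1 at 388, H3 at 138 and H4 at 86.2.

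Near-identical copies limit what can be said of single members, because a read that lies in a shared stretch fits both genes. Reads were 50 bases long and paired, so a mate outside the stretch could still place a pair, and a shared run marks only where a single read is ambiguous. For 25 of the 34 members, at least 1 run of 50 bases of the main transcript was also found in any transcript of another gene. For 12 members this held for more than 50% of the runs. In 4 pairs over 90% of the runs were shared, and the values within each pair lay within 1.33 times of each other. *HIST2H4A* and *HIST2H4B*, which have identical transcripts, stood at 61.2 and 63.6. *HIST1H4J* and *HIST1H4K* stood at 100.1 and 102, *HIST2H3A* and *HIST2H3C* at 15.4 and 14.3, and *HIST2H2AA3* and *HIST2H2AA4* at 98.8 and 131. The higher value was 1.02 to 1.33 times the lower in these 4 pairs. It was 1.03 to 83.1 times in the 27 other pairs of members whose main transcripts shared any run. At most 15% of runs were shared in 24 of these 27, and every ratio above 5.04 involved *HIST1H2BK*. Pairs were sought between main transcripts only. They leave out *HIST1H2AM* at 40.8, which shared 67.8% of its runs with another transcript of *HIST1H3J*, at 18.3. How the authors' counting split shared reads is not given in the sources used here, so the values of these 8 genes are uncertain. The same holds for the other members that share more than 50% of their runs, and for sums that hold any of these genes.

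Sharing of sequence did not always go with equal values. *HIST1H2AI* shared 63.5% of its runs with *HIST1H2AJ*, yet stood at 35.2 against 3.17. *HIST1H2BK* shared 57.2% of its runs with other transcripts, 47.8% with a single gene model that has no symbol. *HIST1H1C* shared no run, and *HIST3H2A* shared 1.08% of its runs, all with the transcript of *H2AX*. The 9 members with no shared run had a median of 15.8, and the 25 with any had 40.8.

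**Figure D2:**
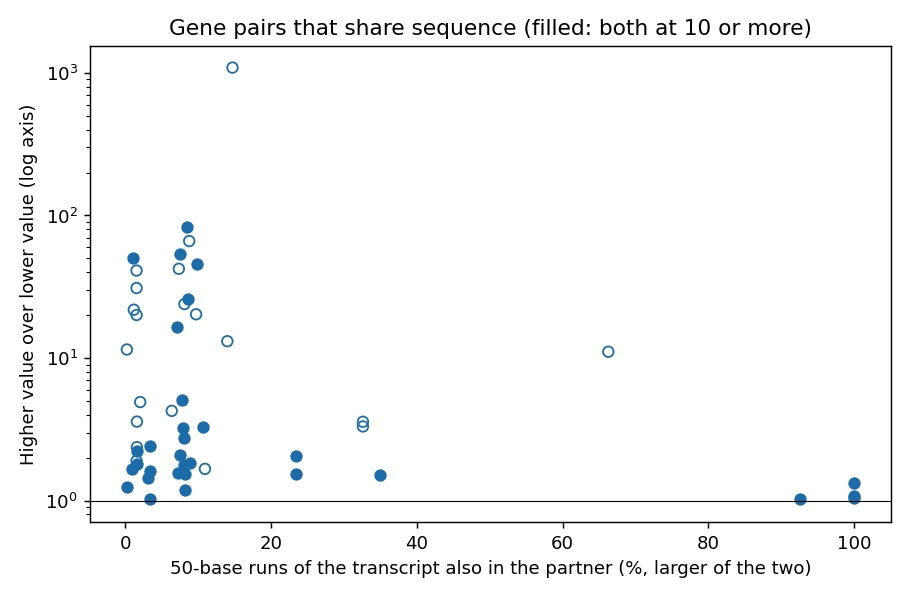
Each point is a pair of listed histone cluster genes whose main transcripts share at least 1 run of 50 bases (51 pairs, of which 31 have both genes at 10 or more, filled). The horizontal axis gives the percent of one transcript's runs found in the partner and the vertical log axis the higher value over the lower; the 4 pairs above 90% lie between 1.02 and 1.33.

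The members were unevenly spread over the gene groups. On chromosome 6, the HIST1 genes fell into 3 stretches parted by gaps of over 400 kb. In the first stretch, from 26020451 to 26285638, 10 of 24 listed genes were members and the median over all 24 was 4.51. The second, from 27125897 to 27147562, held 5 listed genes, of which 4 were members, with *HIST1H2BK* the highest and *HIST1H4I* the lowest at 0.337. In the third, from 27807479 to 27893891, 9 of 14 were members and the median was 19.5. The HIST2 group on chromosome 1, from 149782689 to 149887965, had 9 members among 11 listed genes and a median of 41.4. Both listed HIST3 genes were members, and the lone HIST4 gene, *HIST4H4*, was not, at 0.487.

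**Figure D3:**
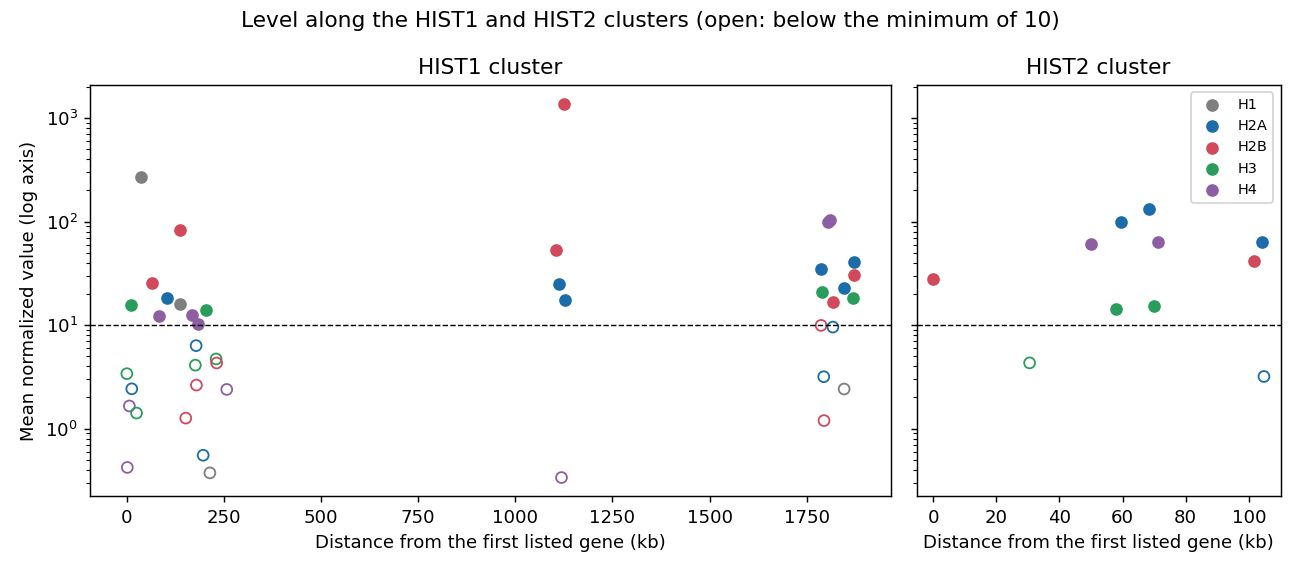
Mean normalized value (log axis) against the distance in kb from the first listed gene of the HIST1 cluster (left) and the HIST2 cluster (right), coloured by histone class, with genes under the minimum of 10 drawn as open circles. The first HIST1 stretch holds 14 open circles among 24 genes, and HIST1H2BK stands highest in the middle stretch.

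Many H2A and H2B genes lie back to back and share the DNA between their start sites. Among the listed genes 10 such pairs were found, with 169 to 250 bases between the genes, and in 6 of them both were members. *HIST1H2BK* at 1378 faced *HIST1H2AH* at 17.4 across 250 bases, a ratio of 79.2. *HIST3H2A* at 278 faced *HIST3H2BB* at 17.0 across 229 bases, a ratio of 16.3. The other pairs of members were closer: *HIST1H2BJ* and *HIST1H2AG* differed 2.13-fold, *HIST2H2AC* and *HIST2H2BE* 1.54-fold, *HIST1H2BC* and *HIST1H2AC* 1.41-fold, and *HIST1H2AM* and *HIST1H2BO* 1.35-fold, all in deposited values. H2B was the higher partner in 3 of these 6 pairs.

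Promoters of 28 members, from 250 bases before the start to 50 after it, were found in the RefSeq table for GRCh38.p14 and searched on both strands. The 6 members not matched were *HIST1H2BK*, *HIST1H2AH*, *HIST1H2BD*, *HIST1H3E*, *HIST1H3J* and *HIST1H4C*, so the counts do not cover the leading gene. The CCAAT box, bound by the factor NF-Y, was present in 22 of 28 members (78.6%), against 34.6% of 35116 promoters. It was found in all 22 H1, H2A, H2B and H3 promoters and in 0 of 6 H4 promoters. Under the minimum, the H4 promoter of *HIST1H4I* held it. With 1 mismatch allowed, which 98.7% of all promoters met, it was found in 6 of 6 H4 promoters too. TATAAA was present in 19 of 28 members (67.9%), against 11.5% of all promoters. The octamer ATTTGCAT, known from H2B genes as a site for OCT1, was present in 10 of 28 members, 5 of 7 H2B and 5 of 9 H2A, against 1.77% of all promoters. In the back-to-back pairs *HIST1H2AG* and *HIST1H2BJ*, *HIST2H2AC* and *HIST2H2BE*, *HIST1H2AC* and *HIST1H2BC*, and *HIST1H2AM* and *HIST1H2BO*, both genes were counted for the same site. Among the H2A members with the octamer, only *HIST1H2AL* was not in such a pair. A pair of back-to-back genes shares much of this window, and the near-identical pairs described above have near-copies of it, identical in *HIST2H4A* and *HIST2H4B*. Promoters are therefore not independent of each other. Among the symbols under the minimum the shares were alike, with CCAAT in 18, TATAAA in 13 and the octamer in 9 of 21, so the members and the other cluster genes held them in similar shares.

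The annotation of the members held some longer forms. Of the 34 members, 13 had more than 1 transcript in GENCODE, against 3 of 23 symbols under the minimum. A RefSeq gene span of over 1 kb was recorded for 7 members and for 1 symbol under the minimum, *HIST1H3D*. Those 7 members were *HIST1H2BK*, *HIST1H2BD*, *HIST2H4B*, *HIST2H2BE*, *HIST2H2BF*, *HIST1H2BC* and *HIST1H3E*, so 5 of the 7 were H2B genes. Their values ran from 14.0 to 1378 with a median of 41.4, beside 10.2 to 278 and a median of 22.7 for the other 27. These counts do not say at which end a form is longer, but in *HIST2H2BE* the main transcript ran on for 1729 bases after the stem-loop. The letters AATAAA, which can serve as a polyadenylation signal, occurred anywhere in the main transcript of 3 of the 34 members, *HIST1H4J*, *HIST2H2AC* and *HIST2H2BE*, and of 2 of the 23 symbols under the minimum. The share over all coding genes was 83.4%, but transcripts were not matched on length, and a longer one has more places to hold these letters. Most main transcripts of members also end within a few bases of the stem-loop, so a signal further on could not be found. The polyadenylated share of any member's RNA was not tested, and a larger supply of transcript cannot be told apart from a larger polyadenylated part. Overlap with other genes adds to this: 11 members overlapped an annotated gene on their own strand and 5 one on the other strand.

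The median of the replication-independent histone genes lay above that of the cluster genes on either scale. At 2784 per kilobase of a 495-base transcript, *HIST1H2BK* was above 9 of these 12 genes, a count that depends on that length. All 12 listed genes were at the minimum or above, with a median of 2583 in mean normalized value (26.6 for members) and of 1379 per kilobase (53.2 for members), a ratio of 25.9 per kilobase. *H2AFZ*, which encodes the variant H2A.Z, reached 9753 per kilobase, *H2AFY* for macroH2A1 reached 7418, and *H3F3B* for H3.3 reached 3077. *H2AFY2*, which encodes macroH2A2, was at 1858, the DNA damage histone gene *H2AFX* at 2071, and the linker histone genes *H1F0* and *H1FX* at 1429 and 1330. *H3F3C* was at 1029, *H2AFV* at 436, *H2AFJ* at 409, *H3F3A* at 311 and the centromere histone gene *CENPA* at 298. Only *HIST1H2BK*, *HIST3H2A* and *HIST1H1C* among the 34 members lay above the lowest of these 12 per kilobase.

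The machinery that serves the histone genes was present throughout. All 13 genes for histone transcription and pre-mRNA processing were at the minimum or above, with a median of 258 per kilobase. *SLBP* was at 2470, *SYMPK*, which encodes the cleavage scaffold symplekin, at 2406 and the endonuclease gene *CPSF3* at 1797, while *LSM11* of the U7 snRNP was the lowest at 37.5. Of the 19 histone chaperone and importer genes, the FACT subunit gene *SSRP1* led with 11979 per kilobase, followed by *RBBP7* at 5026 and *IPO4* at 4395, and *ATRX* was the lowest at 214. The 17 S phase genes had a median of 2659 per kilobase, led by *MCM7* at 10630, *MCM4* at 5240 and *MCM2* at 4774, with the cyclin gene *CCNE2* the lowest at 289. Of the 34 members, 3 lay above that lowest S phase value per kilobase, and 1 lay above the lowest S phase gene in deposited values. In deposited values the medians stood further above the members, at 1419 for processing, 5280 for chaperones and 8459 for S phase, which is 53.4, 198 and 318 times the member median of 26.6, against 4.84, 26.1 and 49.96 times per kilobase.

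**Figure D4:**
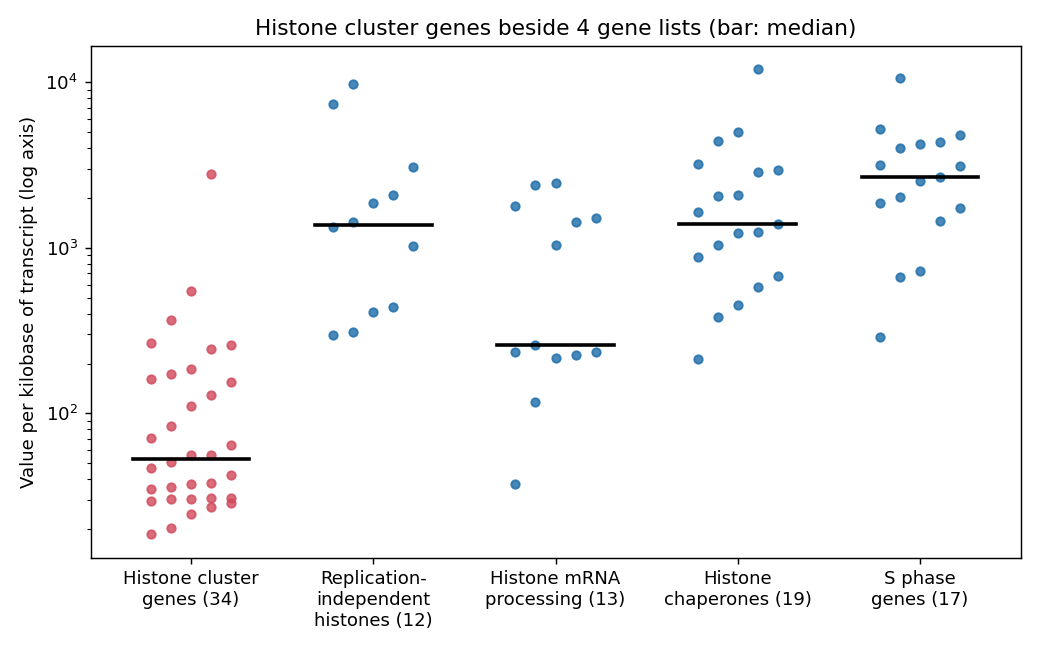
Value per kilobase of transcript (log axis) for each gene of the 34 members (red) and of 4 gene lists (blue), with a black bar at each median. The member median of 53.2 lies below the medians of all 4 lists, which run from 258 for histone mRNA processing to 2659 for S phase genes.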

How the data were processed

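RNA from 12 samples in 4 groups was sequenced. The authors aligned reads to GRCh38.p7 with SeqManPro, quantified genes with ArrayStar and QSeq, and fitted DESeq2 (version 1.40.1 in the submitters' processing notes, which list GRCh37 beside GRCh38). The deposited signal of each gene is the authors' mean, over all samples, of values divided by size factors, and it was identical in the 3 tables for all 23292 symbols. The other columns hold the authors' log2 fold changes, standard errors, Wald statistics and p-values for a compound against vehicle, and were not used. The methods give a read depth per sample, but sample totals were not analysed here. Depth by sample, counting intervals and replicate spread are therefore not given, and no test was made.

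The members and the gene lists were chosen with earlier results of these data known. Older symbols were matched to current ones through RefSeq synonyms. All 57 matched, 3 of them after a second candidate that belonged to another symbol alone was dropped. Lengths, stem-loops, shared runs and overlaps came from GENCODE 44 on GRCh38, whose primary chromosomes are those of the authors' build. A length was found for 89.7% of the 15638 symbols at the minimum of 10 or above. Percentiles give the share of those symbols at or below a value. Named genes were the 3 highest and the lowest of each class per kilobase, the 3 members and 3 symbols on either side of the minimum, the HIST3 genes, and of the processing, chaperone and S phase lists the 3 highest and the lowest per kilobase, with every replication-independent histone gene. Other members and symbols named beside a sequence or pair were chosen after their values were seen. Motif and run searches were tested on simulated sequences. Python 3.11.15 was used.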

Additional observations from a re-analysis of the deposited data

How the results depend on the processing

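No paired analysis was possible because the result comes from no test, and replicates could not be left out in turn because values per sample were not used. The number of members depended on the minimum, with 6 at 100 and 57 with none. Their share of the total was 0.00618% at a minimum of 100, 0.00485% without the highest member and 0.00862%, equal to 3 digits, with only genes at 10 or more as denominator. The median member stood at 26.6 as deposited, 37.8 per kilobase of the longest transcript, 316 per kilobase at a minimum of 100 and 31.0 without members that share a run with another member, against 53.2. The replication-independent histone genes stood at 2583 as deposited, against 1379 per kilobase, so their median lay above the members' median on both scales. The class order became H2A, H4, H2B, H3, H1 without the highest member of each class, which kept 7 of 10 pairs of classes in order, and H2A, H1, H3, H4 without members that share a run with another member, which kept 4 of 6 pairs and left no H2B gene. With runs of 100 bases, 16 members shared sequence, against 25. With 2 mismatches, a setting chosen after seeing the data, 31 members held the stem-loop, against 20. The number of members with each promoter motif stayed within 1.5 times when the bases after the start were left out or 1 mismatch was allowed, but with 1 mismatch CCAAT was in 6 of 6 H4 promoters in place of 0, and 98.7% of all promoters held CCAAT and 59.2% TATAAA. The deposited mean covers all samples, so it limits every statement to the level of a gene and none to a compound.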
